A study of Mus musculus with 36 samples.

Results

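A set of 9 genes that define the B cell lineage were followed in liver, spleen and thymus of mice: Cd79a, Cd79b, Ms4a1, Pax5, Ebf1, Ighm, Pou2af1, Fcrla and Cd22. They were chosen by name, as the rows whose gene number maps to these symbols. All 9 of 9 were found among 19001 genes of a paired-end RNA-seq table and among 17697 genes of a single-end table. The paired-end table held tissues of mice with wild-type p53 (wt), either untreated or 3 h after 2 Gy of X-rays. The single-end table held tissues titled d24 xray, by this title from mice lacking the C-terminal end of p53, and tissues titled wt xray. For the single-end libraries the labels give 2 Gy and 3 h for d24 spleen, wt liver and wt thymus. They give no dose or time for d24 liver, d24 thymus and wt spleen. Each of the 12 groups had 3 libraries, and the labels give no strain, age or sex and name no animals. p-values therefore measure the spread between these libraries, which may be partly technical. The series title asks what the p53 C-terminus does in liver and for resistance to radiation.

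B cells carry an antigen receptor made of an immunoglobulin and a signalling pair of chains, and a small set of transcription factors commits progenitors to the lineage and keeps it. Cd79a and Cd79b encode the signalling pair, Ighm encodes the constant part of the IgM heavy chain, and Ms4a1 encodes the surface protein CD20. Ebf1 and Pax5 are the transcription factors of B lineage specification and commitment, and Pou2af1 is a B cell coactivator of octamer-binding factors. Cd22 is an inhibitory co-receptor of the antigen receptor that binds sialic acid, and Fcrla is an intracellular protein related to Fc receptors. Of these organs spleen holds the most B cells, thymus makes T cells and holds few B cells, and resting adult liver holds few lymphocytes. In bulk tissue, fewer B cells and less RNA per B cell cannot be told apart.

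The coordinates below are those of GRCm38, the assembly the submitters' processing notes call mm10. Cd79a lies on chr7:24897497-24901858 (plus strand), Cd79b on chr11:106311341-106314562 (minus), Ms4a1 on chr19:11249679-11266149 (minus) and Pax5 on chr4:44524748-44710694 (minus). Ebf1 lies on chr11:44618100-45008096 (plus), Pou2af1 on chr9:51213690-51240079 (plus), Fcrla on chr1:170917594-170932216 (minus) and Cd22 on chr7:30865404-30880342 (minus). Ighm, annotated as an immunoglobulin constant gene, lies on chr12:113418826-113422730 (minus). Antisense genes are annotated within Ms4a1, Pax5, Ebf1 and Cd22. None of these partners has a row in either table, and whether counting used strand was not given in the sources used here. Reads from a partner therefore cannot be told apart from those of its gene.

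The 140 bases just before a RefSeq start site are shown for Pax5, Fcrla and Cd22, the members whose level changed in irradiated spleen. The Pax5 window lies directly outside the gene coordinates given above. Those of Fcrla and Cd22 lie within the coordinates of their genes, before internal start sites, so they are not sequence upstream of the whole gene. Each is written 5′ to 3′ on the strand of its gene, and capitals mark the only match to the motifs searched.
Pax5, chr4:44710695-44710834 (minus): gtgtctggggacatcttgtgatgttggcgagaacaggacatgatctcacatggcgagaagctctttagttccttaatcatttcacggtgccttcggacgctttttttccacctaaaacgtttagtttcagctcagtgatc
Fcrla, chr1:170927584-170927723 (minus): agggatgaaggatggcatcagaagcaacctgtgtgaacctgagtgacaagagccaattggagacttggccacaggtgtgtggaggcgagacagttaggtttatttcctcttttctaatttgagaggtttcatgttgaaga
Cd22, chr7:30879029-30879168 (minus): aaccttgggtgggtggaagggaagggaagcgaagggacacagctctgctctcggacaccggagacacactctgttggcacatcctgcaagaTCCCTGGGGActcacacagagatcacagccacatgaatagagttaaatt
The search covered windows of 300 bases, 250 before and 50 after a start site, on both strands. RefSeq windows were at hand for 6 of 9 members, in 7 windows because Ebf1 has a pair of starts. The capitals in Cd22 mark a palindromic site of the Ebf1 type, TCCC and GGGA with 2 bases between them. It lies 49 to 40 bases before the internal start used here. This motif was in 1 of the 7 windows and in 0.905% of all 32817 windows. The octamer ATGCAAAT (1.74% of all windows), the ETS core GAGGAAGT (3.20%), the p53 half-site (8.36%) and the NF-kB site (8.46%) matched in 0 of the 7. A match is a run of letters and not a measured binding site.

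The deposited values are normalised signal, whole reads of a gene times a constant for each library, and a level below is this signal. Paired-end libraries held 44348579 to 81322683 reads, so 1 read was worth 0.00991 to 0.0377, and single-end libraries held 20481048 to 38042710, so 1 read was worth 0.0171 to 0.0828. Tissue markers followed the labels in the paired-end table. Alb, a liver protein, was at 235659 to 257546 in untreated liver, Foxn1 of thymic epithelium was at 8.70 to 12.5 in untreated thymus and 0 in untreated liver and spleen, and Cd3e of T cells was at 199 to 232 in untreated thymus. The single-end labels conflict: 9 libraries titled xray carry the treatment control (d24 liver, d24 thymus and wt spleen), and the 9 titled d24 carry the cell type WT. A panel of 8 p53 target genes (Cdkn1a, Mdm2, Ccng1, Bax, Bbc3, Phlda3, Aen and Sesn2) summed to 190 to 205 in untreated spleen and to 1395 to 1498 after X-rays. In the single-end table it summed to 241 to 279 in spleen titled wt xray and to 1049 to 1419 in spleen titled d24 xray. The corresponding sums were 180 to 309 against 341 to 642 in liver and 248 to 289 against 453 to 639 in thymus. The single-end groups are therefore called by their titles, and an effect of the deletion cannot be told apart from a difference in irradiation between them. This touches all 9 libraries titled wt xray, so no comparison without them could be made.

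In untreated mice the 9 genes were highest in spleen, with a lower mean in thymus and the lowest mean in liver. Thymus and liver libraries overlapped for Cd79a, Ms4a1, Pax5 and Cd22. Cd79a was at 378, 330 and 347 in the 3 spleens, at 26.9, 9.94 and 5.03 in the thymuses and at 3.58, 6.92 and 3.57 in the livers. The spleen libraries stood above every library of the other tissues. Ms4a1 was at 236, 189 and 199 in spleen, at 15.5, 5.87 and 3.50 in thymus and at 2.15, 3.69 and 2.09 in liver. The means in spleen were 29.9 (Cd22) to 78.7 times (Ms4a1) those in liver, with a median of 59.6 over the 9 genes. They were 4.05 (Ighm) to 34.2 times (Pax5) those in thymus, with a median of 16.9. Ratios between tissues depend on the deposited scaling. It gave untreated livers a total signal of 1856580 to 1974820, spleens 856981 to 964001 and thymuses 589786 to 599804.

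All 9 genes passed the test for spleen above thymus and all 9 for spleen above liver (limma, log2(signal + 0.5), largest adjusted p 2.52e-06 and 3.25e-09). The untreated spleens are shared by both comparisons. These tissues differ in most genes: 76% of 14107 genes passed in either direction against thymus (39.3% higher in spleen), and 87.2% of 14286 against liver (42.5% higher in spleen). Pax5 and Ebf1 entered the spleen and liver comparison through spleen alone, since no liver library reached a signal of 1. Between thymus and liver, 7 of the 8 genes tested were higher in thymus (limma), where 86.8% of 14542 genes passed (41.3% higher in thymus). Cd22 was the member that did not pass, at 6.38 ± 3.79 in thymus and 4.03 ± 0.89 in liver (SD, n = 3), and Pax5 was not tested there. Cd22 did pass with quantile scaling (limma, adjusted p = 0.0399) and with DESeq2 (adjusted p = 0.0258). The call on Cd79a between thymus and liver held in 12 of 18 alternatives, and that on Ms4a1 in 16 of 18. Ebf1 entered this comparison through thymus alone.

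Ighm had the largest ratio of thymus to liver among the 9 genes. Its level was 445, 467 and 362 in untreated thymus against 22.3, 33.5 and 17.6 in liver, a ratio of means of 17.3, while the median ratio of the 9 genes was 3.14. No thymus library came near a liver library. Within a library the reads of Ighm were 4.51 to 5.24 times those of Cd79a in untreated spleen and 16.5 to 71.9 times in untreated thymus. Thymus replicate 1 had the highest level of 8 of the 9 genes in its group, and the exception was Ighm. T cell marker genes (11 listed) summed to 4705 to 5294 in untreated thymus and to 174 to 199 in untreated spleen.

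**Figure D1:**
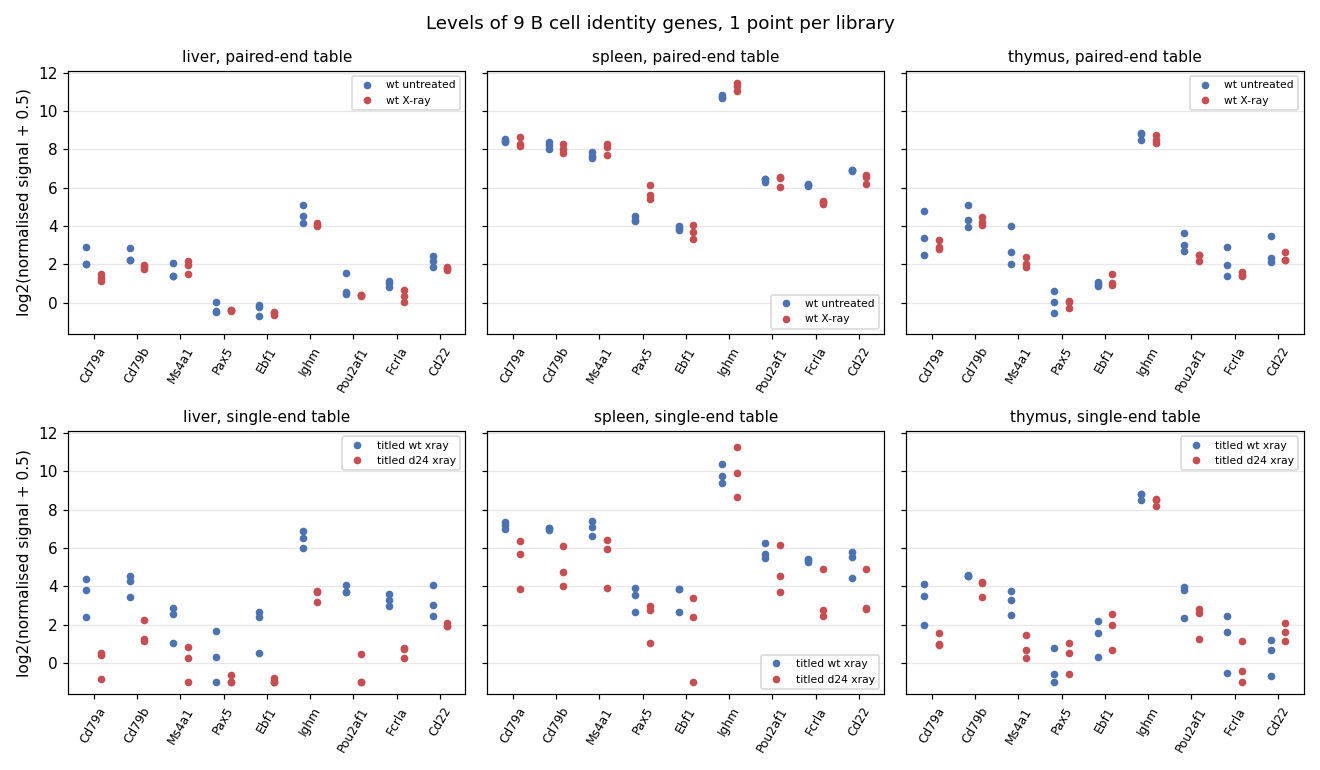
Levels of the 9 genes as log2(normalised signal + 0.5) in every library, by tissue (columns) and table (rows), 1 point per library and 3 per group. In the upper row spleen stands highest, and Ighm stays high in thymus at 362 to 467 in untreated libraries. In the lower row the libraries titled d24 xray lie below those titled wt xray for all 7 members tested in liver.

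Per kilobase of annotated exon, the order in untreated spleen was Ighm (913 ± 46.7), Cd79a (241 ± 16.7), Cd79b (209 ± 26.9), Fcrla (40.5 ± 1.57), Ms4a1 (33.6 ± 3.94), Pou2af1 (33.2 ± 2.08), Cd22 (23.9 ± 0.44), Pax5 (2.28 ± 0.22) and Ebf1 (1.48 ± 0.13), as mean level per kilobase ± SD of 3 libraries. The receptor chains thus stood above the surface proteins, and the transcription factors Pax5 and Ebf1 were lowest. Cd79a and Cd79b overlapped between libraries, as did Ms4a1 and Pou2af1, while the other neighbours in the order did not overlap. The lengths are unions of all annotated exons, which understates a level where long isoforms are unused.

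After X-rays 3 of the 9 genes differed in wt spleen, in both directions, where 40% of 13389 genes changed (19.5% higher and 20.4% lower). Pax5 and Ighm were higher without overlap and Fcrla and Cd22 lower without overlap, where 24.5% and 28.8% of all genes tested were. Pax5 rose from 19.8, 22.3 and 18.5 in the untreated libraries to 42.0, 69.2 and 48.0 after X-rays. Every irradiated library was above every untreated one, and the difference was 1.34 ± 0.18 on the log2 scale (SE; limma, adjusted p = 0.000811). Fcrla fell from 73.8, 69.8 and 68.5 to 34.9, 37.4 and 39.2, with no overlap and a narrow spread in both groups. Its log2 difference was -0.92 ± 0.10 (limma, adjusted p = 0.000349). Both calls held in all 18 alternatives run on them.

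Cd22 was at 122, 118 and 122 in untreated spleen and at 73.8, 103 and 95.0 after X-rays. The groups did not overlap, and the log2 difference of -0.42 ± 0.14 passed (limma, adjusted p = 0.0345). The call held in 10 of 18 alternatives, with adjusted p from 0.0146 to 0.185. It was lost without untreated replicate 1 (0.102), 2 (0.0863) or 3 (0.0996) or X-ray replicate 3 (0.0727), and with the edgeR quasi-likelihood test (0.0728). The limma fits with quantile scaling (0.135), all libraries in 1 fit (0.185) and Xist as a covariate (0.0864) lost it too. Xist was above 100 in 1 of 3 untreated and 2 of 3 irradiated spleens, and its part in the result was not tested beyond that fit.

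Ighm was at 1703, 1643 and 1817 in untreated spleen and at 2093, 2845 and 2504 after X-rays, again with no overlap. Its log2 difference of 0.52 ± 0.18 did not pass (limma, adjusted p = 0.0508). With the replicate number as a block it did (adjusted p = 0.0319), and over 18 alternatives the adjusted p ran from 0.000496 to 0.155, below 0.05 in 7, among them without X-ray replicate 1 (0.00999). In this comparison the same-numbered libraries deviated together.

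The remaining 5 genes overlapped between the groups and did not pass. Cd79a was at 378, 330 and 347 untreated and at 289, 396 and 311 after X-rays, and Cd79b was at 336, 259 and 303 and then at 223, 306 and 259. Both receptor chains overlapped between the groups. Their log2 differences were -0.09 ± 0.15 and -0.19 ± 0.16, with limma adjusted p of 0.642 and 0.346. Ms4a1 was at 208, 311 and 281 after X-rays, beside 236, 189 and 199 untreated. Ebf1 was at 13.4, 15.8 and 14.3 and then at 9.67, 16.02 and 12.5, and Pou2af1 at 87.8, 78.5 and 87.4 and then at 65.8, 93.9 and 91.9. None of these 3 genes separated the groups. Ms4a1 had a log2 difference of 0.34 ± 0.17 (adjusted p = 0.131), Ebf1 one of -0.20 ± 0.17 (0.360) and Pou2af1 one of -0.03 ± 0.15 (0.895), all by limma. Irradiated replicate 1 was the lowest of its group for all 9 genes, and without it Ms4a1 rose by 0.51 (limma, adjusted p = 0.00786; over its alternatives 0.00786 to 0.440) and the number of members that passed was 5.

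The ratio of a member to Cd79a within a library needs no scaling between libraries. It separated the groups for Pax5, Ms4a1, Ighm, Fcrla and Cd22 and overlapped for Cd79b, Ebf1 and Pou2af1. How often ratios of other genes separate these groups was not tested. Ighm reads were 4.51 to 5.24 times those of Cd79a in untreated spleen and 7.18 to 8.06 times after X-rays, so the ranges did not overlap. Cd22 reads were 0.322 to 0.357 of those of Cd79a in untreated spleen and 0.256 to 0.306 after X-rays. A ratio shows that these genes changed unequally and not which of them changed.

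**Figure D2:**
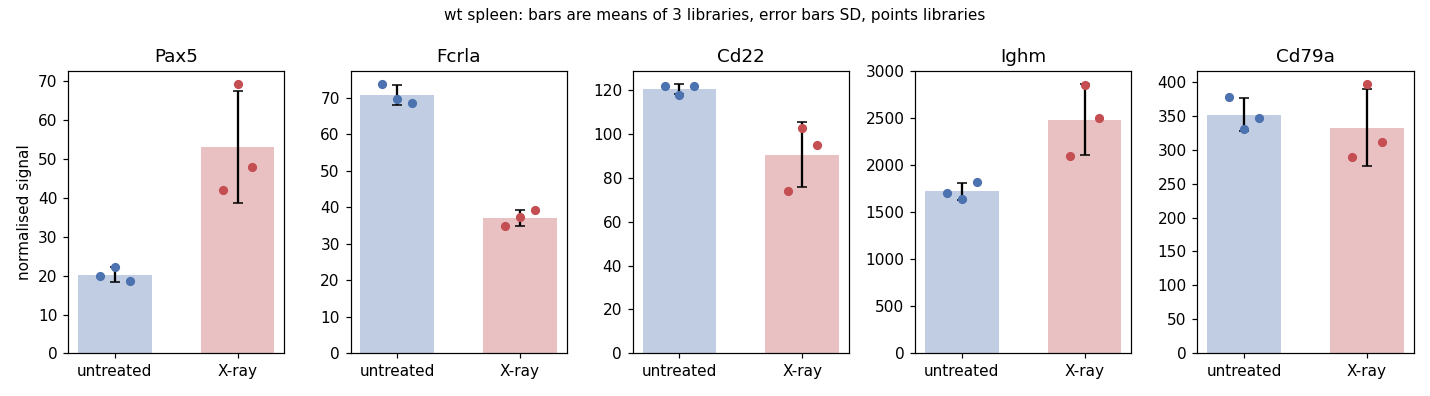
Normalised signal of Pax5, Fcrla, Cd22, Ighm and Cd79a in wt spleen, untreated and after X-rays. Bars are means of 3 libraries from 0, error bars are SD and points are libraries. Pax5 is higher in every irradiated library, Fcrla and Cd22 are lower in every one, Ighm is higher in every one without passing the test, and Cd79a overlaps.

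Other B cell genes in irradiated spleen also moved in both directions, as did genes at large. Of all genes tested 40% passed there (19.5% higher and 20.4% lower). The counts for this list and for those in the next paragraphs stand beside these shares. Of 16 genes of antigen receptor signalling, 8 rose, 1 fell and 7 did not pass, with a median log2 difference of 0.35 beside -0.03 over all genes tested. Cd81, a tetraspanin of the B cell co-receptor complex, rose from 113 ± 8.21 to 213 ± 14.1, the complement receptor Cr2 from 48.5 ± 1.67 to 96.1 ± 18.6 and the adaptor Pik3ap1 from 35.04 ± 1.95 to 59.2 ± 14.6 (SD, n = 3; limma, adjusted p = 0.000643, 0.00158 and 0.00967). Btk, a kinase downstream of the receptor, fell from 73.8 ± 3.68 to 42.0 ± 4.74 (limma, adjusted p = 0.00115).

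Of 14 further B cell transcription factors, 4 rose, 2 fell and 8 did not pass, and the median log2 difference was -0.03. Irf4 rose by 1.29 ± 0.21, Irf8 by 0.94 ± 0.18 and Spib by 0.78 ± 0.16 on the log2 scale (SE). Bach2, a repressor that holds back plasma cell differentiation, fell from 31.0 ± 0.72 to 9.40 ± 1.33, and Ikzf1 fell from 296 ± 16.1 to 200.1 ± 12. The limma adjusted p was 0.00203 for Irf4, 4.11e-05 for Bach2 and 0.00542 for Ikzf1.

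Of 16 genes of B cell subsets and homing, 6 rose, 2 fell and 8 did not pass (median 0.16). Fcer2a, the low-affinity IgE receptor CD23 of mature follicular B cells, rose from 65.1 ± 5.78 to 486 ± 137, a log2 difference of 2.86 ± 0.19 (limma, adjusted p = 2.64e-05). The costimulatory receptor Cd40 rose from 11.5 ± 1.01 to 44.0 ± 10.8 and the follicle-homing receptor Cxcr5 from 48.5 ± 6.09 to 114 ± 31.4. S1pr1, a receptor for exit from lymphoid organs, fell from 54.0 ± 6.50 to 39.4 ± 3.07. The call on S1pr1 held in 13 of 18 alternatives, and those on Fcer2a, Cd40 and Cxcr5 in 18 of 18.

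Of 13 germinal centre and plasma cell genes, 10 were tested and 4 rose. The transcription factor Mef2b was at 0.50 ± 0.13 untreated and 8.64 ± 1.54 after X-rays, and it passed the filter through the irradiated libraries alone. The chaperone Mzb1 rose from 41.5 ± 5.92 to 87.3 ± 4.64, and Bcl6 rose from 12.1 ± 1.52 to 21.2 ± 4.19. Among 8 immunoglobulin constant genes tested, 3 rose and none fell: Igkc by 0.70 ± 0.17, Iglc1 by 0.56 ± 0.18 and Iglc2 by 0.52 ± 0.14 on the log2 scale. The lambda constant genes resemble each other, so reads between them are uncertain, and the calls on Iglc1 and Iglc2 held in 11 and 13 of 18 alternatives. Of 4 genes of B cell precursors and recombination tested, 2 fell, Vpreb3 by 1.28 and Rag1 by 1.63 on the log2 scale. Among 10 genes of MHC class II presentation, 5 rose and 1 fell, with H2-Eb1 at 336 ± 31.6 and then 531 ± 52.4 and H2-Ob at 98.0 ± 14.7 and then 62.8 ± 7.77.

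Markers of other cells moved in the same spleens. Hepatocyte markers were higher in 8 of 8 tested genes, with a summed level of 45.4 to 65.9 untreated and 97.8 to 555 after X-rays. Macrophage markers were higher in 9 of 9 tested, summing to 499 to 680 and then 866 to 1352. Neutrophil markers were higher in 5 of 8 and megakaryocyte markers in 6 of 7, summing to 350 to 469 and 103 to 132 untreated and to 451 to 1023 and 158 to 184 after X-rays. T cell markers were higher in 1 of 11, with sums of 174 to 199 and 182 to 216. Their part in the values of the B cell genes was not tested.

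In wt liver none of the 6 members tested passed after X-rays, where 0.242% of 13250 genes did (limma). Cd79a was at 3.58, 6.92 and 3.57 untreated and at 1.98, 2.30 and 1.66 after X-rays, resting on 51 to 229 reads a library. All irradiated libraries were below the untreated ones, and the log2 difference was -1.01 ± 0.26 (limma, adjusted p = 0.173). Over 17 alternatives its adjusted p ran from 0.0170 to 0.438, below 0.05 with DESeq2 and without X-ray replicate 1. Cd79b was at 4.27, 6.68 and 4.12 and then at 2.87, 3.35 and 3.13 (-0.58 ± 0.20, adjusted p = 0.194). Fcrla was at 1.66, 1.57 and 1.30 and then at 0.79, 0.53 and 1.08 (-0.65 ± 0.22, adjusted p = 0.192). Ighm was at 22.3, 33.5 and 17.6 and then at 17.1, 16.01 and 15.3 (-0.54 ± 0.21, adjusted p = 0.208). Cd79a, Cd79b, Ighm and Fcrla did not overlap between groups and were lower after X-rays, 4 of 6 tested, where 13.9% of all genes tested did so. The same 4 had an unadjusted p below 0.05, as did 2902 of 13250 genes. Ms4a1 was at 2.15, 3.69 and 2.09 and then at 2.35, 3.47 and 4.05. Untreated replicate 2 was the highest of its group for 8 of the 9 genes. Pax5, Ebf1 and Pou2af1 did not reach a signal of 1 in enough libraries, and Pax5 was at 0.23 to 0.51 untreated and 0.25 to 0.26 after X-rays.

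In liver, among the 7 lists of further B cell, precursor, immunoglobulin and MHC class II genes, Bcl6 alone passed, rising from 7.77 ± 1.23 to 39.8 ± 7.80 (SD, n = 3; log2 difference 2.28 ± 0.19, limma, adjusted p = 0.00207). Bcl6 is a repressor of germinal centre B cells that hepatocytes also express. Of 9 MHC class II genes tested 0 passed, with log2 differences of -0.86 to -0.31 and a median of -0.38, beside -0.05 over all genes tested.

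In wt thymus 1 of the 8 members tested passed after X-rays, where 21.3% of 13810 genes did (11.6% lower, and 22% lower without overlap). Pou2af1 was at 11.8, 7.62 and 5.92 untreated and at 5.06, 4.08 and 5.16 after X-rays. The groups did not overlap, and the log2 difference was -0.72 ± 0.22 (limma, adjusted p = 0.0420). The call held in 10 of 18 alternatives (adjusted p 0.00265 to 0.105). It was lost without untreated replicate 1 (0.102) or 2 (0.0783) and without X-ray replicate 1 (0.0581), 2 (0.105) or 3 (0.0822). Ms4a1 was at 15.5, 5.87 and 3.50 and then at 4.77, 3.09 and 3.55, and Cd79a at 26.9, 9.94 and 5.03 and then at 9.10, 6.52 and 6.99. Both overlapped, with log2 differences of -0.80 ± 0.41 and -0.55 ± 0.45 (limma, adjusted p = 0.186 and 0.411). Fcrla, which fell in spleen, was at 6.99, 3.47 and 2.12 and then at 2.15, 2.28 and 2.60, with overlap (log2 difference -0.59 ± 0.31, limma, adjusted p = 0.203). Ighm was at 445, 467 and 362 and then at 327, 431 and 356, with overlap (-0.19 ± 0.13, adjusted p = 0.311). Without untreated replicate 3, Ms4a1 and Fcrla passed (limma, adjusted p = 0.0431 and 0.0410; 0.0431 to 0.511 and 0.0410 to 0.577 over their alternatives). Untreated replicate 1, the highest for 8 members, set the direction of 3 of them. Without it the log2 differences of Cd79a, Cd79b and Cd22 were 0.07, 0.10 and 0.13, in place of -0.55, -0.21 and -0.29.

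Among other B cell genes in irradiated thymus, Cd81 rose from 67.9 ± 2.07 to 150.5 ± 8.03 and Ptpn6, a phosphatase, fell from 143 ± 7.62 to 115 ± 6.71, the 2 of 16 receptor signalling genes that passed. Spib rose from 23.1 ± 5.02 to 45.5 ± 3.81 while Ikzf3 and Ikzf1 fell by 0.40 and 0.38 on the log2 scale, and 11 of 14 transcription factors did not pass. Mzb1 rose from 13.6 ± 4.17 to 41.3 ± 5.57 and Sdc1, a plasma cell surface protein also made by epithelia, from 5.21 ± 0.57 to 9.52 ± 1.85. Ccr7, a homing receptor for lymphoid organs, rose by a log2 difference of 0.52 ± 0.13. MHC class II genes were higher in 4 of 10, among them H2-Ab1 at 306 ± 57.2 and then 439 ± 46.2, H2-DMa and H2-Oa. The calls on Cd81, Spib, Mzb1 and Sdc1 held in 18 of 18 alternatives, and those on Ptpn6, Ikzf1 and H2-Oa in 12, 9 and 9. In the same thymuses thymic epithelial markers were higher in 5 of 7 genes, summing to 899 to 948 untreated and 1297 to 1599 after X-rays. Neutrophil markers were higher in 5 of 6 tested, summing to 26.7 to 44.5 and then 44.8 to 103, and macrophage markers in 5 of 8 tested, summing to 212 to 267 and then 279 to 416. Hepatocyte markers were higher in 1 of 8, summing to 60.5 to 221 and then 179 to 1566, and natural killer cell markers were lower in 1 of 4 tested, summing to 66.2 to 84.6 and then 32.0 to 45.0. Their part in these values was not tested.

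The response of 2 of the 9 genes to X-rays differed between tissues (limma interaction F test over 18 libraries), where that of 30.5% of 15654 genes did. Pax5 gave F = 12.4 (adjusted p = 0.00554) and Ighm F = 9.15 (adjusted p = 0.0135). Pax5 entered this test through spleen, since 0 liver libraries and 1 thymus library reached a signal of 1, and at such levels the pseudocount draws a response towards 0. Its call held in 28 of 29 alternatives (adjusted p 0.000235 to 0.0508). It was lost with a pseudocount of 0.1 (limma, adjusted p = 0.0508), so a difference of its response between tissues depends on that setting. The call on Ighm also held in 28 of 29 alternatives (0.000730 to 0.0690). Quantile scaling lost it (limma, adjusted p = 0.0690). For Ighm the response in spleen exceeded that in liver by 1.06 ± 0.25 (adjusted p = 0.00649), and the excess over thymus of 0.71 ± 0.25 did not pass (adjusted p = 0.0878). Ms4a1 passed the F test without untreated thymus replicate 3 alone (adjusted p = 0.0218; 0.0218 to 0.339 over its alternatives). Single pairs of tissues differed for 26.4% of genes between spleen and liver and 9.54% between spleen and thymus. For Fcrla the log2 differences were -0.92 in spleen, -0.65 in liver and -0.59 in thymus, and they did not pass this test (F = 0.47, adjusted p = 0.706).

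**Figure D3:**
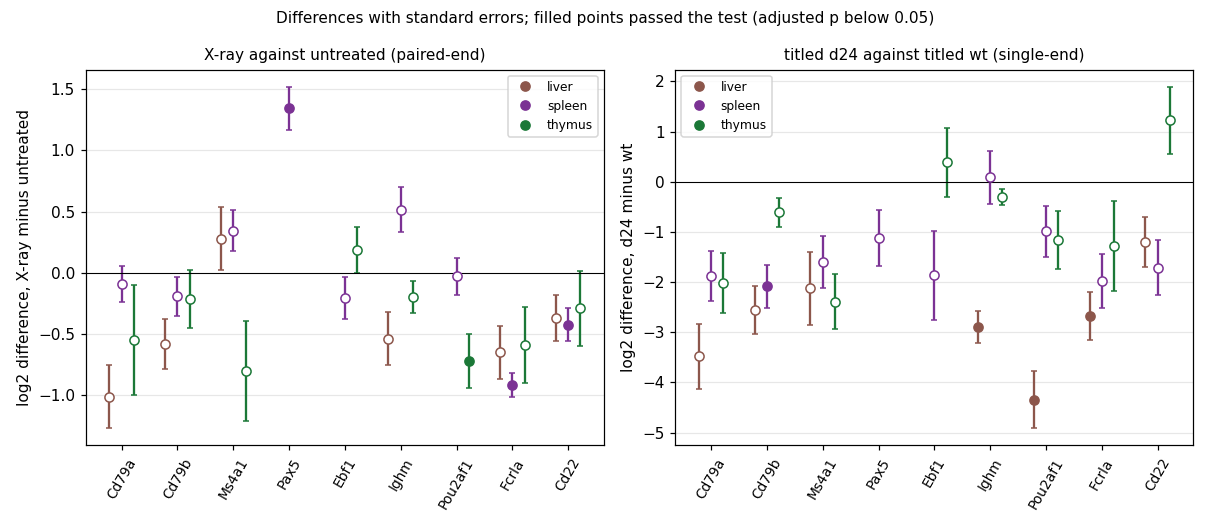
Log2 differences with their SE for X-ray against untreated (left) and for titled d24 against titled wt (right), by gene and tissue. Filled points passed the test (limma, adjusted p below 0.05), open points did not, and members under the filter are not drawn. In irradiated spleen Pax5 is at 1.34 and Fcrla at -0.92, and in liver all 7 members tested lie below 0 in the d24 comparison.

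In the single-end table, the 7 members tested were lower in every liver titled d24 xray than in any titled wt xray. The 9 genes summed to 17.2 to 22.1 in the d24 livers and to 105 to 221 in the wt livers. In paired-end wt liver, which was scaled separately, they summed to 33.3 to 60.6 untreated and to 29.2 to 29.8 after X-rays. Whether the d24 or the wt livers account for the difference was not tested. Ighm was at 13.2, 12.7 and 8.71 in the d24 libraries and at 62.7, 89.7 and 119.8 in the wt libraries. The groups lay far apart, with a log2 difference of -2.89 ± 0.32 (limma, adjusted p = 0.0120). Pou2af1 was at 0, 0.88 and 0 in the d24 libraries (0, 11 and 0 reads) and at 12.7, 12.3 and 16.4 in the wt libraries, and it passed (limma, adjusted p = 0.0157). Fcrla was at 1.18, 0.72 and 1.19 against 7.22, 9.44 and 11.5, a log2 difference of -2.68 ± 0.47 (limma, adjusted p = 0.0445).

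These 3 of the 7 members tested passed, where 0.526% of 13695 genes did (0.248% lower). Cd79a was at 0.06, 0.96 and 0.84 against 4.73, 13.7 and 20.2 (log2 difference -3.48 ± 0.65, limma, adjusted p = 0.0518; 1.17e-05 to 0.109 over its alternatives). Cd79b was at 4.24, 1.68 and 1.90 against 10.6, 18.9 and 23.1 (-2.56 ± 0.48, adjusted p = 0.0513; 0.000153 to 0.311). Both chains were lower in every d24 library and did not pass, except without d24 replicate 3 and in some other alternatives (0.0311 for Cd79a and 0.0465 for Cd79b without that library). Ms4a1 and Cd22 also did not overlap, with log2 differences of -2.13 ± 0.73 and -1.20 ± 0.49 (adjusted p = 0.249 and 0.337). Cd79a and Pou2af1 reached a signal of 1 in the wt libraries only, so their place among the genes tested rests on the group in which they were high, and Pax5 and Ebf1 were not tested. Ebf1 was at 0, 0.08 and 0 against 0.92, 4.72 and 5.79, and Pax5 at 0, 0.16 and 0 against 0, 0.75 and 2.71. Groups did not overlap, with d24 lower, for 11.5% of all genes tested.

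The call on Ighm in liver held in 17 of 18 alternatives and was lost without wt replicate 2 (adjusted p = 0.0777). The call on Pou2af1 held in 12 of the 15 alternatives in which it could be tested (0.000675 to 0.0953). It was lost without d24 replicate 1 (0.0518) and with edgeR (0.0953) and DESeq2 (0.0645), and without any 1 wt library it fell under the filter. The call on Fcrla held in 5 of 18 alternatives (2.85e-05 to 0.295). It was lost without d24 replicate 1 (0.0788) or 2 (0.110) and without wt replicate 1 (0.168), 2 (0.295) or 3 (0.170).

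Among other B cell lists in liver, 3 of 5 precursor and recombination genes tested passed, all lower: Rag1 at 0.17 ± 0.17 against 9.22 ± 2.20, Vpreb3 at 0.05 ± 0.09 against 5.56 ± 1.87 and Dntt at 0.09 ± 0.09 against 6.35 ± 3.66. These genes passed the filter through the wt libraries alone, and the calls on Rag1, Vpreb3 and Dntt held in 12, 8 and 6 of 14 alternatives. Rag1 encodes a subunit of the recombinase, Dntt the polymerase that adds bases at its junctions, and Vpreb3 a protein tied to precursor B cell receptor assembly. Neutrophil markers were lower in 6 of 8 genes, with sums of 13.3 to 76.0 against 404 to 904, and megakaryocyte markers in 1 of 4 tested, with sums of 11.8 to 21.3 against 31.3 to 55.5. In paired-end wt liver, scaled separately, the neutrophil sums were 15.7 to 32.0 untreated and 21.9 to 32.9 after X-rays. MHC class II genes passed in 0 of 8 tested, macrophage markers in 0 of 10 and T cell markers in 0 of 10. The MHC class II sums were still lower without overlap, at 85.4 to 142 against 176 to 1044. Macrophage sums (1360 to 2440 against 1546 to 4144) and T cell sums (20.0 to 31.3 against 29.8 to 86.6) overlapped. The part of these cells in the result was not tested.

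In spleen, the levels of 8 of the 9 genes had a lower mean in the libraries titled d24 xray, and 1 passed, where 2.28% of 13554 genes did (1.24% lower). Cd79b was at 68.4, 15.6 and 26.2 in the d24 libraries and at 124, 134 and 133 in the wt libraries. The wt libraries lay close together and the d24 libraries were spread widely, with a log2 difference of -2.08 ± 0.43 (limma, adjusted p = 0.0261). The call held in 10 of 18 alternatives (8.68e-06 to 0.246). It was lost without d24 replicate 2 (0.109) or 3 (0.119) or wt replicate 3 (0.0588), with edgeR (0.137) and with Xist as a covariate (0.246). Xist was above 100 in 3 of 3 d24 spleens and 1 of 3 wt spleens, and its part in the result was not tested beyond that fit. Cd79a was at 81.0, 13.9 and 51.4 against 126, 162 and 147 (-1.88 ± 0.49, limma, adjusted p = 0.0782), and Fcrla at 29.3, 4.94 and 6.32 against 37.8, 40.7 and 42.3 (-1.98 ± 0.53, adjusted p = 0.0858). Ms4a1 was at 85.3, 14.7 and 62.1 against 134, 172 and 97.1. Cd79a, Cd79b, Ms4a1 and Fcrla did not overlap, 4 of 9 genes, where 10.6% of all genes tested were lower without overlap. d24 replicate 2 was the lowest of its group for 8 of the 9 genes, and d24 replicate 1 the highest for 8. Without d24 replicate 1, Cd79a (limma, adjusted p = 0.0404; 9.44e-05 to 0.423 over its alternatives), Fcrla (0.00637; 0.000521 to 0.634) and Cd22 (0.0336; 0.00364 to 0.442) also passed.

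The transcription factors in spleen overlapped between the groups. Pax5 was at 7.30, 1.59 and 6.40 against 11.3, 14.8 and 5.90, and Ebf1 at 4.81, 0 and 9.82 against 14.2, 13.9 and 5.77. Pou2af1 was at 70.7, 12.5 and 23.1 against 50.8, 75.2 and 43.7, and Cd22 at 29.5, 6.94 and 6.51 against 46.3, 54.6 and 20.9. None of these 4 passed (limma, adjusted p = 0.433, 0.399, 0.438 and 0.162).

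Ighm did not follow the other receptor chains in spleen. It was at 2439, 405 and 963 in the d24 libraries and at 870, 1340 and 675 in the wt libraries. The d24 libraries held both the highest and the lowest value, and the log2 difference of 0.09 ± 0.53 did not pass (limma, adjusted p = 0.962). Without d24 replicate 1 it was -0.56. Within a library, Ighm reads were 18.7 to 30.1 times those of Cd79a in the d24 spleens and 4.60 to 8.27 times in the wt spleens, so every d24 library lay above every wt library in this ratio.

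Of the other B cell genes in spleen, Tnfrsf13c, the receptor for the survival factor BAFF, was at 66.4 ± 9.04 in the d24 libraries against 23.5 ± 7.22, and Cxcr4, a chemokine receptor for bone marrow and germinal centres, at 45.7 ± 5.32 against 107 ± 3.93. They were the 2 of 16 subset and homing genes that passed (limma, adjusted p = 0.0234 and 0.0250), in 11 and 10 of 18 alternatives. Of 8 precursor and recombination genes, 4 were lower. Rag2 was at 0.03 ± 0.03 against 3.94 ± 0.69, Vpreb3 at 1.96 ± 1.23 against 12.9 ± 3.06, Igll1 of the surrogate light chain at 0.57 ± 0.53 against 11.02 ± 9.63, and Dntt also passed. Rag2 passed the filter through the wt libraries alone, and the calls on Rag2, Vpreb3 and Igll1 held in 11 of 14, 11 of 18 and 10 of 18 alternatives. None of 16 receptor signalling genes, 14 transcription factors or 10 MHC class II genes passed (limma). Of the 16 signalling genes, 6 were lower without overlap, where 10.6% of all genes tested were. Neutrophil markers were lower in 7 of 8 genes, with sums of 113 to 928 against 2763 to 8320, and megakaryocyte markers in 7 of 7, with sums of 30.9 to 43.0 against 418 to 987. T cell markers passed in 0 of 11, with sums of 44.5 to 133 against 118 to 159, and macrophage markers in 0 of 9 tested. The part of these cells in the result was not tested.

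**Figure D4:**
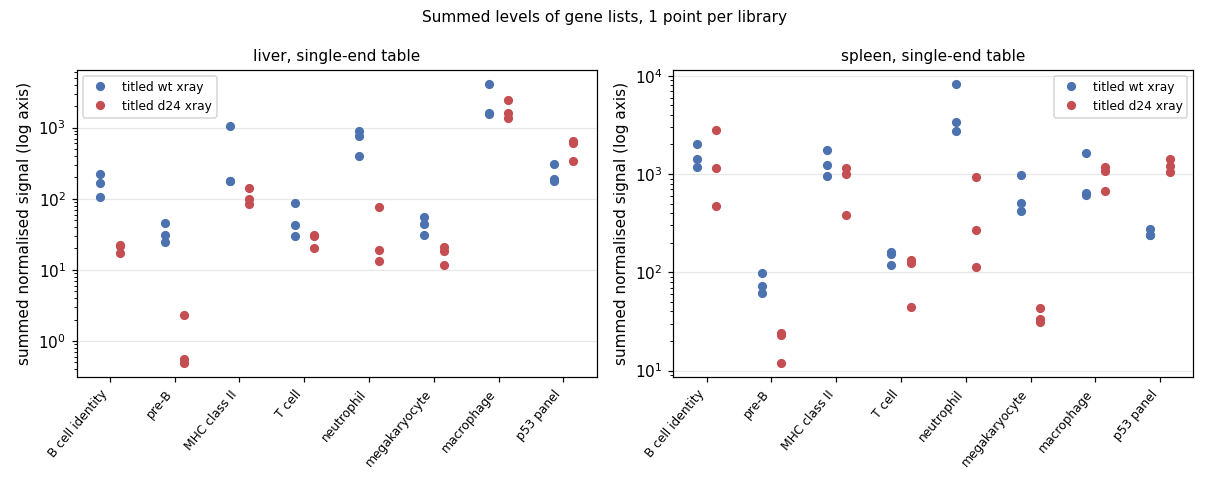
Summed normalised signal (log axis) of 8 gene lists in single-end liver (left) and spleen (right), 1 point per library. The B cell identity sum is 17.2 to 22.1 in liver titled d24 xray and 105 to 221 in liver titled wt xray, while in spleen it overlaps, and pre-B, neutrophil and megakaryocyte sums are lower in every d24 library.

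In thymus none of the 8 members tested passed between the titled groups, where 0.00724% of 13818 genes did. By limma 2 of them had an unadjusted p below 0.05, as did 1359 of all genes tested, and DESeq2 called 2, Cd79a and Ms4a1. Ms4a1 was at 0.68, 1.09 and 2.27 in the d24 libraries and at 13.01, 9.20 and 5.26 in the wt libraries (log2 difference -2.39 ± 0.55, limma, adjusted p = 0.229; 0.00604 to 0.567 over its alternatives). Cd79a was at 1.45, 1.48 and 2.46 against 16.6, 10.8 and 3.40 (-2.01 ± 0.59, adjusted p = 0.343; 0.0158 to 0.654). Neither overlapped between the groups. Cd79b was at 10.4, 17.6 and 18.2 against 23.2, 22.9 and 23.1, so these 3 of 8 genes were lower without overlap, where 7.55% of all genes tested were. Ms4a1 passed without d24 replicate 3 (limma, adjusted p = 0.0334). Pou2af1 was at 6.45, 5.64 and 1.87 against 13.7, 15.4 and 4.58, and Ebf1 at 1.07, 3.49 and 5.49 against 2.45, 4.14 and 0.74, both with overlap. Ighm was at 360, 379 and 295 against 366, 456 and 450, with overlap (-0.30 ± 0.16, adjusted p = 0.590). Cd22 was at 2.56, 1.70 and 3.74 against 1.09, 1.79 and 0.12, with overlap. Ighm reads were 120.1 to 256 times those of Cd79a in the d24 thymuses and 22.0 to 133 times in the wt thymuses.

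The d24 against wt difference of 1 of the 9 genes differed between tissues, where that of 0.988% of 16092 genes did. For Ighm the F was 14.3 (limma, adjusted p = 0.0257; 0.000576 to 0.127 over 29 alternatives, below 0.05 in 19). Its difference in spleen exceeded that in liver by 2.98 ± 0.61 on the log2 scale (adjusted p = 0.0287). The excess of thymus over liver, 2.59 ± 0.61, did not pass (adjusted p = 0.0758). The call on the F was lost without d24 liver replicate 2 (0.0503) or 3 (0.0540), d24 spleen replicate 3 (0.0522), wt liver replicate 2 (0.0703) or 3 (0.0779), wt spleen replicate 1 (0.0520) or wt thymus replicate 1 (0.0543), and with edgeR (0.0645). Pou2af1 gave F = 9.84 and did not pass (adjusted p = 0.0744; 0.00700 to 0.276 over its alternatives). It passed without d24 liver replicate 2 (0.0488), d24 spleen replicate 2 (0.0487) or d24 thymus replicate 3 (0.0490).

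Across the 18 paired-end libraries the log2 levels of 2 members correlated with r of 0.802 to 0.996 (median 0.963), and across the 18 single-end libraries with r of 0.342 to 0.973 (median 0.770). The libraries of each table come from 3 tissues, and these values share the spread between them. Among the genes whose levels were most like the mean of the members were Fcrl1 (r = 0.948, the lower of the values over 18 paired-end and 18 single-end libraries), Syk (0.945), Plcg2 (0.940), Samhd1 (0.929), H2-Ob (0.917), Napsa (0.912) and Igkc (0.912). Of 17479 genes in both tables, 13 had a lower r above 0.9, and the median was -0.16. In irradiated spleen these genes moved in both directions: Igkc rose by 0.70 ± 0.17 and H2-Ob fell by 0.64 on the log2 scale.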

How the data were processed

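RNA-seq of total RNA was deposited separately for paired-end and for single-end libraries, and 18 of each were used. Libraries were made with a stranded kit, per the labels, and the submitters' processing notes name edgeR and mm10. An aligner or counter was not given in the sources used here. The unit of the deposited signal is not named in those sources. Its values are whole reads (100.0% within 0.01 of a step) times 1 constant per library, with column totals of 1000000 in geometric mean, as for reads divided by an effective library size. The planned test for normalised values was used. Each table was scaled separately, so every test stayed within 1. Of the 36 value columns for paired-end libraries, 18 match no library of the series and were not used. RefSeq (GRCm38) matched 96.7% and 97.1% of rows, and GENCODE gave exon lengths.

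Groups come from the titles. Genes that reached a signal of 1 in 3 or more libraries in the comparison entered limma 3.58.1 (trend, R 4.3.3) on log2(signal + 0.5). Fold changes on this scale understate changes of low genes. The p-values were Benjamini-Hochberg adjusted over all genes, at 0.05. The test was first checked on data simulated for spleen comparisons, with the same spread for all genes. That check does not cover groups with a wider spread, such as the d24 spleens. Alternatives were pseudocounts of 0.1 and 2, no filter, a minimum mean of 5, scaling by quantiles or median ratios, no trend, a replicate block, edgeR 4.0.16 and DESeq2 1.42.0 on recovered reads, all libraries in 1 fit, Xist as a covariate, and each library left out. The replicate number paired libraries where every same-number correlation of deviations from group means was above 0.1, as in X-ray against untreated spleen (0.18 to 0.24) and untreated spleen against thymus (0.14 to 0.30). Counting limits leave out variation between animals. Members, lists and tests were chosen with earlier results of these data known. Named besides the 9 members are up to 3 genes per list and direction with the smallest adjusted p, and the 8 most alike in level; some genes under this rule are not reported here.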

Additional observations from a re-analysis of the deposited data

Results flagged for a closer look

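The response to X-rays of Pax5 (interaction over tissues, limma adjusted p = 0.00554) and of Ighm (adjusted p = 0.0135) differed between liver, spleen and thymus by this test. For Pax5 the adjusted p was 0.0508 with a pseudocount of 0.1, and the gene entered the test through spleen. Pax5 rose in spleen and was under the filter in liver and thymus taken alone, where it lay at 0.25 to 0.26 and 0.32 to 0.58 after X-rays. Ighm was higher in 3 of 3 irradiated spleens than in any untreated one, and lower in 3 of 3 irradiated livers. Of all genes tested, 24.5% were higher without overlap in spleen and 13.9% lower without overlap in liver. Taken alone, Ighm passed in neither tissue in the main limma fit. In spleen it passed in 7 of 18 alternatives, among them limma with the replicate block (adjusted p = 0.0319), and in liver in 0 of 18. In liver the groups lay close, with 17.1 the highest irradiated level and 17.6 the lowest untreated one. The titled d24 against wt difference of Ighm also differed between tissues (limma adjusted p = 0.0257), at -2.89 on the log2 scale in liver, while spleen had 0.09 and thymus -0.30. Groups of 3 libraries were not searched for outlying libraries.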

How the results depend on the processing

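The numbers of members that passed depended on the setting or on 1 library in every comparison except untreated spleen against thymus, where all 9 passed in all alternatives. For X-ray liver DESeq2 gave 1. For X-ray thymus no filter, limma without trend and 1 fit of all libraries gave 0, and DESeq2 gave 2. For d24 liver a pseudocount of 2 gave 5 and edgeR 1. For d24 spleen no filter, quantile scaling, limma without trend, edgeR and the Xist covariate gave 0 and DESeq2 gave 2. With the replicate block d24 spleen gave 6, although the same-numbered libraries there share only a number (r of -0.19 to -0.05), and the block changed no other count by more than 1.5 times. For d24 thymus DESeq2 gave 2. For the interaction of X-rays with tissue a pseudocount of 0.1 and quantile scaling each gave 1, and for that of d24 quantile scaling, limma without trend and edgeR gave 0 and DESeq2 gave 3. For untreated thymus against liver a mean of at least 5 left 4. Leaving out 1 library gave 0 to 1 in X-ray liver, 2 to 5 in X-ray spleen, 0 to 3 in X-ray thymus, 0 to 5 in d24 liver, 0 to 4 in d24 spleen, 0 to 1 in d24 thymus, 2 to 3 and 0 to 2 in the interactions of X-rays and of d24, 7 to 9 in untreated spleen against liver and 5 to 7 in untreated thymus against liver. The log2 difference of Pou2af1 in X-ray spleen turned to 0.075 with quantile scaling, 0.0499 with edgeR and 0.0214 with DESeq2, and ran from -0.12 to 0.14 without 1 library. Ebf1 in X-ray thymus turned to -0.0013 with quantile scaling, and Ighm in d24 spleen to -0.45 with the Xist covariate. Without 1 library, values crossed 0 for Cd79a in X-ray spleen (-0.23 to 0.00082), for Cd79a (-1.09 to 0.068), Cd79b (-0.46 to 0.10) and Cd22 (-0.55 to 0.13) in X-ray thymus, for Ighm in d24 spleen (-0.56 to 0.73) and for Ebf1 in d24 thymus (-0.14 to 0.93). The cause was not tested. Over all genes, the number called ran from 9 to 2836 in X-ray liver, 3136 to 7037 in X-ray spleen, 1576 to 4270 in X-ray thymus, 4 to 531 in d24 liver, 45 to 597 in d24 spleen and 0 to 266 in d24 thymus. Of 826 alternatives on single members in the X-ray and d24 comparisons, 737 kept direction and side of the threshold. That count includes members that did not pass and stayed so. The calls themselves held in 5 of 18 (Fcrla in d24 liver) to 18 of 18 (Pax5 and Fcrla in X-ray spleen). Those on Cd22 in X-ray spleen, Pou2af1 in X-ray thymus and Cd79b in d24 spleen held in 10 of 18. Members in liver rest on few reads.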
